A study of Mus musculus with 19 samples.

Results

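The genes described here are 10 genes used to mark fibroblasts and their matrix: S100a4, Pdgfra, Pdgfrb, Fap, Dcn, Lum, Fn1, Postn, Pdpn and Thy1. They were chosen by name, all 10 matched an identifier, and they are 10 of the 46078 genes in the table. S100a4 encodes FSP1, and it is of special interest because a promoter of this gene drives Cre recombinase in the mouse model.

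Fibroblasts build and remodel the extracellular matrix of the mammary gland, the mesh of collagens, glycoproteins and proteoglycans around epithelial ducts and fat. Some of their genes encode receptors and surface proteins, namely the platelet-derived growth factor (PDGF) receptors Pdgfra and Pdgfrb, the serine protease Fap, and the glycoproteins Pdpn and Thy1. Others encode secreted matrix proteins, namely the collagen-binding proteoglycans decorin (Dcn) and lumican (Lum), fibronectin (Fn1) and periostin (Postn). S100a4 is a small calcium-binding protein of the S100 family. None of these genes is made by fibroblasts alone: macrophages and T cells also make S100a4, mouse T cells make Thy1, pericytes make Pdgfrb, lymphatic endothelium and basal epithelium make Pdpn, and macrophages and some carcinoma cells make fibronectin.

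RNA-seq was performed on 19 libraries from mice, of which the MMTV-neu mice were females of mixed FVB, C57 and BALB/c background. The 3 MG-WT libraries came from glands of wild-type mice matched by age to the other mice. The 4 MG-N libraries came from glands, free of malignant lesions, of tumor-bearing mice with wild-type p53 in fibroblasts: replicate 1 was MMTV-neu;Fsp-Cre, and replicates 2, 3 and 4 were MMTV-neu;p53wm-R172H/+ without Cre. The 4 MG-NP libraries came from such glands of MMTV-neu;p53wm-R172H/+;Fsp-Cre mice, in which Cre switches 1 copy of Trp53 to the R172H mutant. The 4 T-N libraries came from tumors of MMTV-neu;Fsp-Cre mice and the 4 T-NP libraries from tumors of MMTV-neu;p53wm-R172H/+;Fsp-Cre mice. All but the MG-WT mice carried MMTV-neu, which drives the Erbb2 oncogene from a mammary epithelial promoter, and the T-N mice shared their genotype with MG-N replicate 1 only. Fsp-Cre acts wherever the FSP1 promoter is active, and the RNA came from whole tissue rather than from sorted fibroblasts. The library names of T-NP replicates 1 and 2 share a number, and whether they came from 1 mouse is not stated. Trp53 was at 483 to 2297 normalized counts in all 19 libraries, and its level cannot show whether Cre had switched the allele.

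Values are normalized counts, that is, reads per gene divided by the size factor of the library. The MG-WT libraries held 54677315 to 62645459 reads and the other 16 held 20899152 to 27262440. Several libraries stood apart. The 12 skeletal muscle genes took 1.48, 7.4, 0.0455 and 4.03% of the reads in MG-NP replicates 1 to 4. They took 0.00153 to 0.0613% in the MG-N libraries and 0.000546 to 0.000694% in the MG-WT libraries. The 9 white adipocyte genes summed to 2106 to 3098 normalized counts in MG-WT but to 288993 to 394053 in MG-N and 140238 to 369426 in the MG-NP glands, and the 9 luminal epithelial genes to 117090.0 to 137252 in MG-WT against 20352 to 33864 in MG-N. No marker in these 3 lists was at 0 in any group, and the part of these tissue differences in the results below was not tested. In whole tissue, fewer cells of a type and less RNA per cell cannot be told apart. T-N replicate 3 was the highest of the T-N libraries for 9 of the 10 genes, all but Fn1. Of the 8 tumor libraries it also had the highest sums of skeletal muscle (27544), white adipocyte (7190), macrophage (31565) and T cell genes (286). The part of these tissues in its values was not tested. MG-N replicate 2 was the highest of its group for 7 of the 10, and MG-N replicate 1 was the lowest for 6.

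S100a4 lies on chromosome 3 of GRCm38 at chr3:90603771-90606045 on the plus strand, in a cluster with S100a3, S100a5 and S100a6. The 250 bases before its RefSeq start site in GRCm38.p6, at chr3:90603520-90603769, are shown because the FSP1 promoter sets where Cre is made. Capitals mark the only match to the motifs searched, a TATA box (TATAAA) on the forward strand whose first base lies 31 bases before the start.
S100a4 promoter: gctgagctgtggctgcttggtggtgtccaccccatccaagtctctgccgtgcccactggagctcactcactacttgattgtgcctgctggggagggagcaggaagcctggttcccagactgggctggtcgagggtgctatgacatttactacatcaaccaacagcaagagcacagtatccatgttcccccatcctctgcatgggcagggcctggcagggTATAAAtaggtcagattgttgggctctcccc

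The motifs searched on both strands of the 300 bases from 250 before to 50 after the start were TATAAA, the GC box GGGCGG and the AP-1 motif TGANTCA. They were present in 13.6%, 35.7% and 7.81% of 32851 RefSeq promoters of that length. RefSeq promoters were at hand for 4 of the 10 genes, S100a4, Postn, Pdpn and Pdgfra. The 60 bases before the start are given for a Postn start and for Pdpn and Pdgfra, to set them beside the S100a4 sequence, again with TATAAA in capitals.
Postn (chr3:54361047-54361106, plus strand): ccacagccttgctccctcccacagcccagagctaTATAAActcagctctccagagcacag
Pdpn (chr4:143299565-143299624, minus strand): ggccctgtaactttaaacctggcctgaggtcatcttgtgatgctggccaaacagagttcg
Pdgfra (chr5:75152191-75152250, plus strand): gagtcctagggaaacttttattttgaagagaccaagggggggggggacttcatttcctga

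At this Postn start TATAAA began 26 bases before the start, and the 300-base window of the other Postn start in the table held none of the 3 motifs. The Pdpn window held GGGCGG 2 times, both after the start, and the Pdgfra window held none of the motifs. A match of letters is a description and not a measured binding site. Of the other genes, Pdgfra lies at chr5:75152292-75198215, Fap at chr2:62500943-62574075 on the minus strand, Dcn at chr10:97479609-97518143, Lum beside it at chr10:97565128-97572703, Fn1 at chr1:71585520-71653200 on the minus strand, Postn at chr3:54361109-54391037, Pdpn at chr4:143267431-143299564 on the minus strand, and Thy1 at chr9:44043384-44048579.

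The S100a4 counts rest on a gene model that shares exons with another. Gm42674, a gene on the same strand, covers 302 of the 584 exon bases of S100a4, and its transcript holds the first 287 of the 303 coding bases of an S100a4 transcript. Those 287 bases, between chr3:90605012 and chr3:90605885 over 2 exons, are shown because reads from them fit both genes.
Coding bases shared by S100a4 and Gm42674: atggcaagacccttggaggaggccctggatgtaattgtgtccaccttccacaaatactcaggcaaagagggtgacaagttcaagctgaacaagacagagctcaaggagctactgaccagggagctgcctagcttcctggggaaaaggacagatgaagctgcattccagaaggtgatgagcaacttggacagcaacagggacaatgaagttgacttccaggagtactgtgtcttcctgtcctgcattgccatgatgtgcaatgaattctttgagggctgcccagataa

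Gm42674 was listed at 0 in all 19 libraries, and how reads that fit both genes were assigned is not given in the sources used here. The S100a4 values may therefore come from part of the gene only, and its level against other genes is uncertain. The other 9 genes shared no exon bases with a gene on the same strand except Pdgfra, which shares 30 of its 10024 with Mir7025. Pdgfra also overlaps 622 exon bases of genes on the opposite strand, and Fn1 overlaps 292.

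S100a4 had few reads in every library. Normalized counts were 1.71, 4.39 and 4.65 in MG-WT, 24.2, 33.3, 30.1 and 27.8 in MG-N, 53.4, 8.56, 43.3 and 33.6 in MG-NP, 2.27, 0, 16.2 and 1.17 in T-N and 2.24, 4.88, 5.2 and 8.74 in T-NP, in the order of the replicates. All MG-N values lay above all MG-WT and all tumor values, whereas MG-NP replicate 2 fell within the range of the tumors. The 293 reads of all libraries together ranged from 0 reads in T-N replicate 2 to 56 in MG-NP replicate 1, so the tumor and MG-WT values rest on 0 to 16 reads each. The order of the group means was MG-NP, MG-N, T-NP, T-N and MG-WT, and among neighbors in this order only MG-N and T-NP had ranges that did not overlap.

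Its neighbors on the chromosome had other levels. S100a6, another calcium-binding protein, averaged 2645 ± 416 (SD, n = 3) normalized counts in MG-WT, 3764 ± 848 (n = 4) in MG-N, 2928 ± 387 in MG-NP, 1486 ± 805 in T-N and 1570.1 ± 926 in T-NP. S100a3 stayed between 2.33 and 18.4 in the 19 libraries, with ranges that overlapped between all groups, and S100a5 was listed at 0 in all of them.

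**Figure D1:**
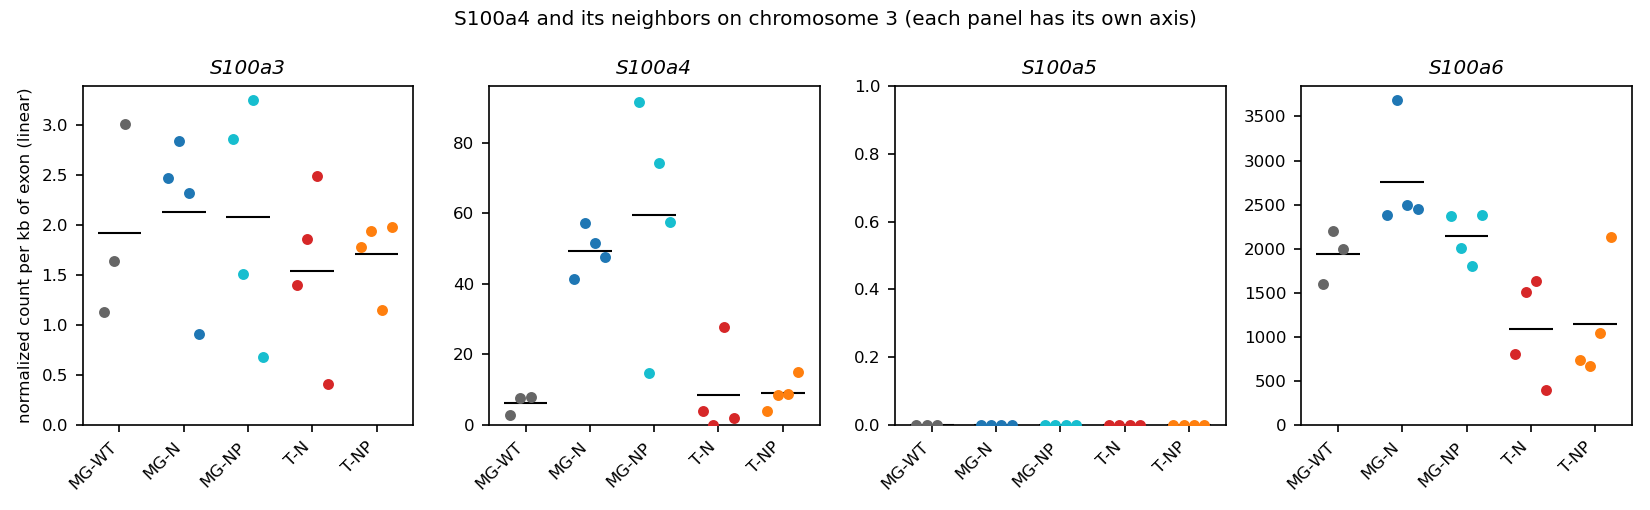
Normalized counts per kb of exon (linear axis, a separate scale in each panel) of S100a3, S100a4, S100a5 and S100a6 in the 5 groups; points are libraries and bars are group means. S100a4 was highest in MG-N and MG-NP, S100a5 was at 0 throughout, and S100a6 reached at most 2135 per kb in the tumors.

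Of the 10 genes, 8 had their highest group mean in MG-N and 8 had their lowest in T-NP. The exceptions at the top were S100a4, highest in MG-NP, and Pdpn, highest in MG-WT, and at the bottom S100a4 and Fn1, lowest in MG-WT. For Dcn, Fap, Lum and Pdgfra, all 8 tumor values lay below all 8 values of MG-N and MG-NP. For Dcn, Lum, Pdgfra and Pdpn, they also lay below all 3 MG-WT values. T-N and T-NP ranges overlapped for all 10 genes. How many of all genes follow the same orders or gaps was not counted, so these counts describe the 10 genes only.

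Scaled by exon length, a matrix gene had the highest level in every group and S100a4 the lowest of the 10. In MG-N, Dcn stood at 5196 ± 401 normalized counts per kb (SD, n = 4), followed by Postn at 4039 ± 2139, Fn1 at 3692 ± 3521 and Lum at 2558 ± 741. The receptors and surface proteins were lower per kb, from Pdgfra at 975.2 ± 74.2 through Pdgfrb at 602 ± 227, Thy1 at 468 ± 245 and Fap at 344 ± 101 to Pdpn at 313 ± 128, and S100a4 stood at 49.4 ± 6.57. In MG-WT the highest was Postn, at 1717 ± 152 per kb (n = 3), followed by Dcn at 1352 ± 388. In T-NP tumors the order began with Fn1 at 647 ± 193 per kb (n = 4) and Postn at 516 ± 133, and Dcn at 108 ± 29.5 came after Pdgfrb at 218 ± 95.5. Neighbors in these orders often differed by less than their SD, as Postn, Fn1 and Lum did in MG-N.

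**Figure D2:**
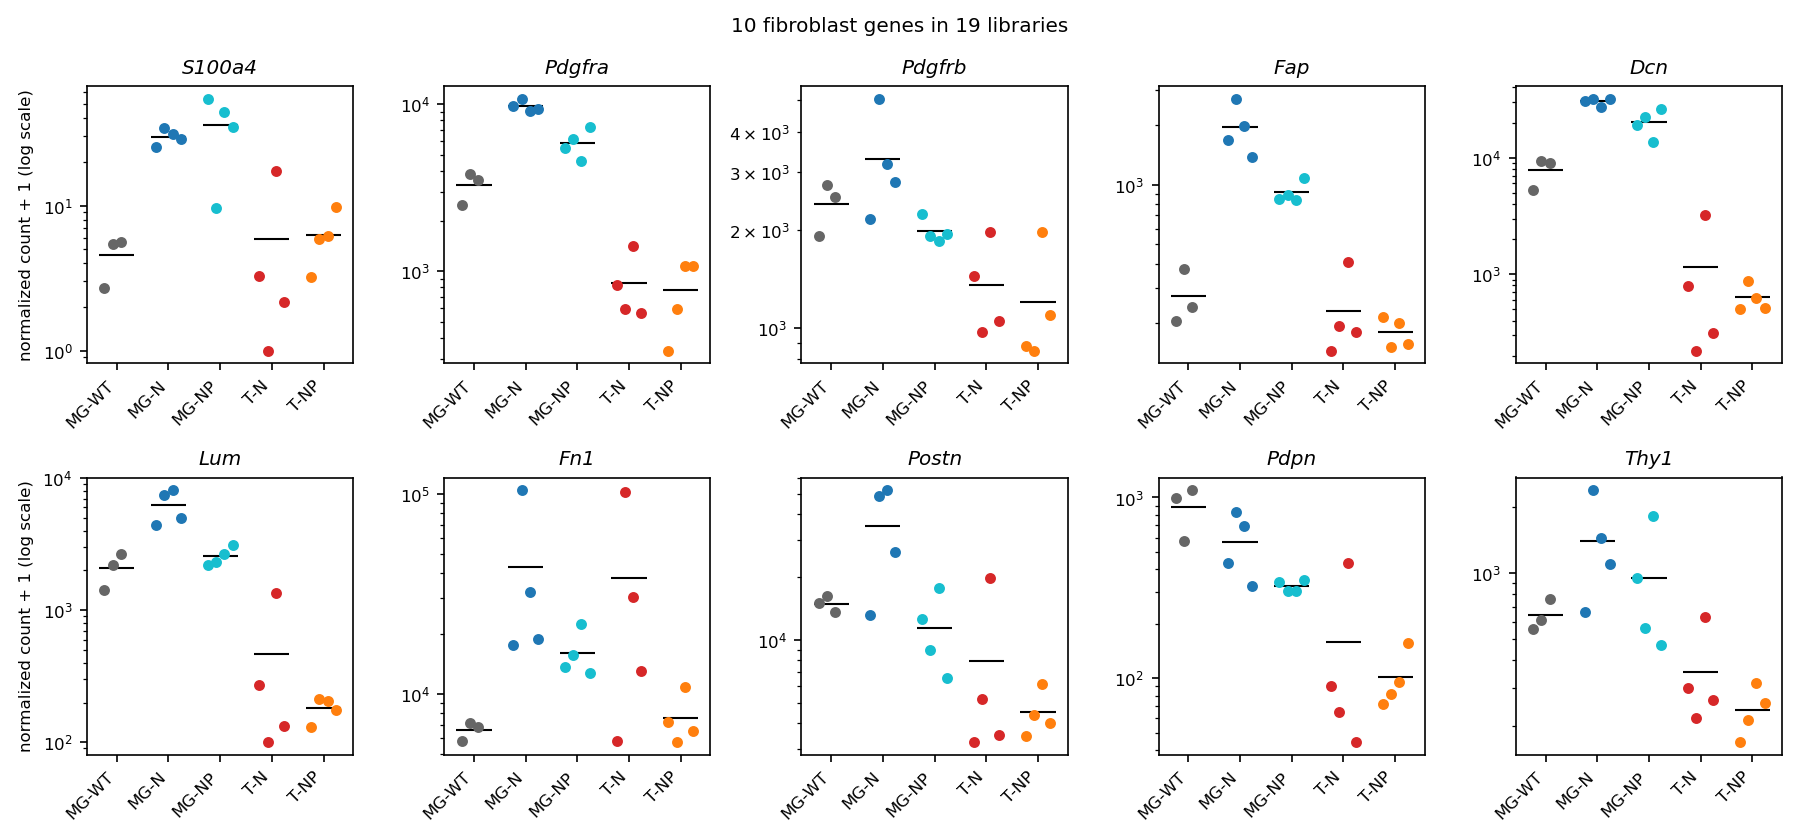
Normalized count plus 1 (log axis) of each of the 10 genes in the 19 libraries by group; points are libraries in replicate order and bars are group means. The T-N replicate 3 point lies at the top of its group in 9 panels, and the Fn1 panel shows 1 library far above its group in MG-N (104059) and T-N (102219).

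Glands of the neu mice were first set against wild-type glands. In MG-N, 6 of the 10 genes rose and none fell, namely S100a4, Fap, Fn1, Dcn, Pdgfra and Lum, against 19.1% of all 19017 genes tested that rose and 17.9% that fell. A gene is said to rise or fall where its Benjamini-Hochberg adjusted p, from limma across all genes tested, was under 0.05 and its change at least 2-fold on log2(normalized count + 1), a scale that understates the change of low genes such as S100a4. In MG-NP, 4 rose (S100a4, Fap, Dcn and Fn1) and Pdpn fell, against 16.4% and 16.2% of 19065 genes. Both comparisons share the 3 MG-WT libraries, so they are not independent.

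Fap, the protease known from activated fibroblasts, was at 205, 373 and 240.3 in MG-WT, 1688, 2722, 1987 and 1387 in MG-N and 847, 886, 838 and 1087 in the MG-NP glands. The 3 groups did not overlap, with MG-N highest and MG-WT lowest. It was 7.12-fold higher in MG-N (log2 change 2.83, SE 0.27, limma adjusted p = 7.2e-05) and 3.44-fold higher in MG-NP (log2 change 1.78, SE 0.23, limma adjusted p = 0.0011).

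Dcn, the proteoglycan that coats collagen fibrils, was at 5293, 9445 and 8948 in MG-WT, 30524, 31747, 26974 and 32091 in MG-N and 19041, 22469, 13724 and 26331 in the MG-NP glands. Its groups also did not overlap, and every neu gland lay above every wild-type gland. The log2 change was 1.98 (SE 0.21, limma adjusted p = 0.000118) in MG-N and 1.37 (SE 0.29, adjusted p = 0.00727) in MG-NP. Lum, the related proteoglycan, was at 1429.5, 2194 and 2663 in MG-WT, 4415, 7484, 8119.6 and 5028 in MG-N and 2187, 2315, 2688 and 3097 in the MG-NP glands. It rose in MG-N by 1.58 on the log2 scale (SE 0.28, limma adjusted p = 0.00158), while its MG-NP and MG-WT ranges overlapped and the log2 change of 0.33 did not pass (95% interval -0.22 to 0.87, adjusted p = 0.279).

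Pdgfra, the receptor that marks most tissue fibroblasts, was at 2502, 3817 and 3538 in MG-WT, 9811, 10803, 9109 and 9379 in MG-N and 5436, 6203, 4595 and 7345 in the MG-NP glands, again without overlap. Its log2 change was 1.59 (SE 0.16, limma adjusted p = 8.83e-05) in MG-N and 0.84 (SE 0.21, adjusted p = 0.0152) in MG-NP, the latter under the 2-fold limit. Pdgfrb, which pericytes also make, was at 1905, 2749 and 2525 in MG-WT, 2156, 5051, 3176 and 2797 in MG-N and 2229, 1913, 1843 and 1941 in the MG-NP glands. Its ranges overlapped MG-WT in both groups, and it differed by 0.41 in MG-N (95% interval -0.22 to 1.03) and -0.26 in MG-NP (-0.63 to 0.11), neither past the test.

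S100a4 was 6.81-fold higher in MG-N (log2 change 2.77, SE 0.36, limma adjusted p = 0.00033) and 6.87-fold higher in MG-NP (log2 change 2.78, SE 0.65, adjusted p = 0.0113) than in MG-WT, with no overlap. The MG-NP call rests on few reads: without MG-WT replicate 1 its adjusted p was 0.0509, and with MG-NP replicate 1, 3 or 4 left out the gene did not pass the filter on low counts. The 10 macrophage genes summed to 4601 to 7233 in MG-WT, 30448 to 71185 in MG-N and 21041 to 42617 in the MG-NP glands, with no marker at 0. In MG-NP replicates 1 to 4 the 8 T cell genes summed to 5110.3, 374, 6138 and 613, the macrophage genes to 39078, 21041, 42617 and 25489, and both sums were lowest in replicate 2, where S100a4 was lowest. Thy1 was higher in MG-NP replicates 1 and 3, where the T cell sum was higher, than in replicates 2 and 4. The MG-N libraries did not show this order. There the T cell sum was lowest in replicate 2 (807), which had the highest Thy1 (2392), S100a4 (33.3) and macrophage sum (71185). It was highest in MG-N replicate 4 (4483), where Thy1 was at 1103 and S100a4 at 27.8. The part of these cells in the S100a4 and Thy1 levels was not tested.

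Fn1 was at 5793, 7136 and 6842 in MG-WT, 17639, 104059, 32108 and 18747 in MG-N and 13559, 15597, 22378 and 12646 in the MG-NP glands. Every neu gland lay above every wild-type gland, and MG-N replicate 2 was more than 3 times as high as the next. The log2 change was 2.30 (SE 0.56, limma adjusted p = 0.00798) in MG-N, 1.74 without that library, and 1.25 (SE 0.21, adjusted p = 0.00335) in MG-NP. Postn, a matrix protein of remodeling stroma, was at 15048, 16213 and 13570.2 in MG-WT, 13108, 48759, 52261 and 26447 in MG-N and 12649, 8914, 17665 and 6553 in the MG-NP glands, with overlapping ranges. Its log2 changes of 1.04 (adjusted p = 0.0749, limma) and -0.48 (adjusted p = 0.253) did not pass. Thy1, at 558, 609 and 761 in MG-WT, 664, 2392, 1446 and 1103 in MG-N and 950.0, 564, 1816 and 471 in the MG-NP glands, overlapped between groups. Its log2 changes of 0.98 in MG-N (adjusted p = 0.052, limma) and 0.37 in MG-NP (adjusted p = 0.524) also did not pass. MG-N replicate 1 was the only Fsp-Cre library of its group. It held the lowest MG-N value of 6 of the 10 genes, S100a4, Pdgfrb, Lum, Fn1, Postn and Thy1, and the highest of none. Without that library Postn and Thy1 rose, by 1.45 and 1.29 on the log2 scale (adjusted p = 0.00351 and 0.00683, limma), which made 8 of 10. With all libraries in, edgeR (adjusted p = 0.0422 and 0.0357) and DESeq2 (adjusted p = 0.00699 and 0.00809) also called Postn and Thy1 higher.

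Pdpn, a glycoprotein of fibroblasts, lymphatic vessels and basal epithelium, was the only one of the 10 genes to fall. It was at 987, 574 and 1097 in MG-WT, 431, 829.8, 692 and 324 in MG-N and 340.5, 304, 304 and 349.9 in the MG-NP glands, so the MG-NP values were close together and below all MG-WT values while MG-N overlapped both. The log2 change was -1.39 (SE 0.24, limma adjusted p = 0.00332) in MG-NP and -0.68 (SE 0.36, adjusted p = 0.133) in MG-N. The 8 basal epithelial genes summed to 58347 to 71108 in MG-WT, 9293 to 20009.8 in MG-N and 8319 to 17161 in the MG-NP glands, with no marker at 0, and their part in the Pdpn values was not tested. A fit that took the skeletal muscle score into account called 2 genes in MG-NP, Fn1 and Thy1. There Dcn was at 0.30 on the log2 scale in place of 1.37, whereas Fap (1.498), Pdpn (-1.52) and S100a4 (4.63) kept their direction at a limma adjusted p of 0.111, 0.122 and 0.0693. The 12 skeletal muscle genes summed to 153.8 to 185.5 in MG-WT and to 10581 to 2.54e+06 in MG-NP, without overlap. Muscle and group therefore cannot be told apart in this fit, and its values are not changes corrected for muscle.

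Tumors were then set against glands. The T-N tumors carried Fsp-Cre without the p53 allele, whereas MG-N replicates 2 to 4 carried the allele without Cre. In T-N against MG-N, tissue therefore cannot be told apart from Cre and the allele, except against MG-N replicate 1. T-NP and MG-NP shared their genotype. In T-N, 9 of the 10 genes were lower than in MG-N and none was higher, against 22.3% of 17950 genes tested that were lower and 12.8% that were higher. Fn1 was the gene that did not pass. In T-NP, 8 of the 9 genes tested were lower than in MG-NP and none was higher, against 24% and 14.7% of 17880 genes. There Pdgfrb missed the 2-fold limit and S100a4 did not pass the filter on low counts.

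The proteoglycans showed the largest drops of the 10 in both comparisons. Dcn was at 795, 219, 3246 and 314 in T-N and 507, 876, 626 and 516 in T-NP, below every gland value. It was 46.5-fold lower in T-N than in MG-N (log2 change -5.54, SE 0.72, limma adjusted p = 0.000482) and 32.2-fold lower in T-NP than in MG-NP (log2 change -5.01, SE 0.24, adjusted p = 6.08e-06). Lum was at 270.4, 99, 1353 and 132 in T-N and 129, 211, 205 and 174 in T-NP. T-N replicate 3 was highest among the 8 tumors for both genes, and T-N replicate 2 was lowest. Lum changed by -4.52 (SE 0.73, limma adjusted p = 0.00122) and -3.84 (SE 0.20, adjusted p = 6.93e-06) on the log2 scale.

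Among the receptors, Pdgfra was at 831, 594, 1423 and 561 in T-N and 333, 592, 1075 and 1068 in T-NP, with no tumor in the range of any gland. Its log2 change was -3.62 (SE 0.28, limma adjusted p = 6.06e-05) in T-N and -3.07 (SE 0.37, adjusted p = 0.000213) in T-NP. Pdgfrb fell least of the receptors. It was at 1437, 967, 1967 and 1045 in T-N and 877, 848, 1963 and 1092 in T-NP, and only T-NP replicate 3 lay within the range of the glands it was compared with. Its log2 change was -1.27 (SE 0.30, limma adjusted p = 0.00801) in T-N and -0.81 (SE 0.26, adjusted p = 0.024) in T-NP, where it passed at -1.08 without T-NP replicate 3.

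Fap was at 144, 194, 405 and 179.7 in T-N and 214, 150.05, 200.03 and 156 in T-NP, below all MG-N and MG-NP values, and T-N and T-NP both overlapped MG-WT. It changed by -3.14 (SE 0.34, limma adjusted p = 0.000206) in T-N and -2.35 (SE 0.18, adjusted p = 2.69e-05) in T-NP on the log2 scale. Thy1 was at 299, 218, 633 and 264 in T-N and 168, 212, 313 and 256 in T-NP, and changed by -1.96 (adjusted p = 0.00589, limma) and -1.83 (adjusted p = 0.00563). The 8 T cell genes summed to 100.4 to 286 in T-N and 59.4 to 256 in T-NP, against 807 to 4483 in MG-N and 374 to 6138 in the MG-NP glands, and no T cell marker was at 0 in any group. Their part in the Thy1 change was not tested. Pdpn was at 89.8, 64.3, 432 and 43.2 in T-N and 70.6, 80.5, 94.8 and 156 in T-NP, where only T-N replicate 3 reached the gland values. It changed by -2.37 (adjusted p = 0.0168, limma) in T-N, which edgeR did not call (adjusted p = 0.0642), and by -1.75 (adjusted p = 0.000736, limma) in T-NP. Of the 8 basal epithelial genes, 8 fell in T-N and 7 in T-NP. Of the 6 lymphatic endothelial genes, 5 and 4 fell, against 22.3% and 24% of all genes tested. None of either list rose, and the part of these cells in the Pdpn change was not tested.

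Postn was at 3233, 5201, 19898 and 3505 in T-N and 3469, 4368, 6145 and 3989 in T-NP, and T-N replicate 3 alone lay above the lowest MG-N value. It changed by -2.39 (SE 0.64, limma adjusted p = 0.0138) and -1.28 (SE 0.31, adjusted p = 0.00778) on the log2 scale. Fn1 was at 5808, 102219, 30408 and 12943 in T-N and 7198, 5731, 10822 and 6512 in T-NP. Its T-N values spanned 17.6-fold, from below all neu glands to the level of the highest one, and the log2 change of -0.56 (95% interval -2.59 to 1.47, limma adjusted p = 0.622) was 0.00 without MG-N replicate 2 and 0.08 without T-N replicate 1. In T-N replicate 2, where Fn1 was highest, Dcn and Lum were lowest of all tumors. In T-NP Fn1 fell by 1.09 on the log2 scale (SE 0.25, limma adjusted p = 0.00574), and it was under the 2-fold limit without MG-NP replicate 3 (-0.92) or T-NP replicate 2 (-0.97).

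S100a4 was 8.93-fold lower in T-N than in MG-N (log2 change -3.16, SE 0.77, limma adjusted p = 0.00878), with no overlap. The change was -3.95 without T-N replicate 3, -2.58 without T-N replicate 2 and -2.02 with a pseudocount of 5, and it was called in each. In T-NP against MG-NP a fit with no filter on low counts gave -2.36 (95% interval -3.76 to -0.96, limma adjusted p = 0.0145), and there the ranges overlapped. With MG-NP replicate 2 or any T-NP library left out, S100a4 passed the filter, which follows the size of the smaller group. Without MG-NP replicate 2, 9 genes were called lower, and without T-NP replicate 3, 10 were. Leaving out T-N replicate 3, the highest T-N library for 9 of the 10 genes, kept the count at 9 of 10 and moved Dcn to -6.31 and Lum to -5.30 on the log2 scale. The luminal epithelial genes summed to 93438 to 173879 in T-N and 97275 to 133076 in T-NP, several times their level in the neu glands. White adipocyte genes summed to 679.6 to 7190.2 and 969 to 2437 in the tumors, and the part of these shifts in the changes of the 10 genes was not tested.

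**Figure D3:**
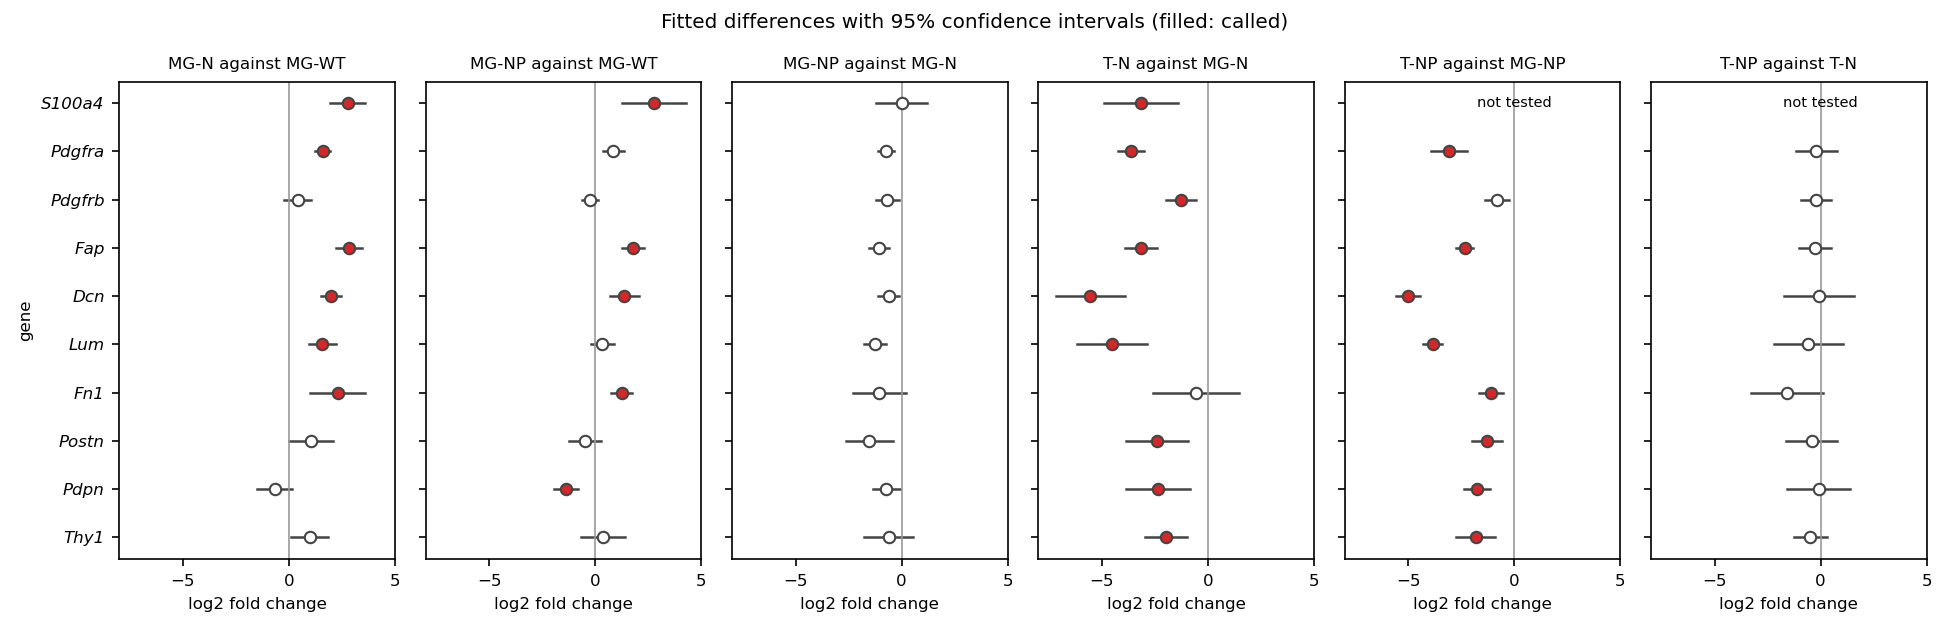
Log2 fold changes (points) with 95% confidence intervals (lines) of the 10 genes in 6 comparisons, from limma; filled points passed an adjusted p of 0.05 and a 2-fold change. Filled points lie right of 0 for 6 genes in MG-N and 4 in MG-NP against MG-WT, left of 0 for Pdpn in MG-NP, and left of 0 for 9 and 8 genes in the tumor comparisons, and no point is filled in MG-NP against MG-N or T-NP against T-N.

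The p53 genotype was compared within glands and within tumors. Between MG-NP and MG-N, limma called none of the 10 genes, against 0% of 18563 genes higher and 0% lower. At an unadjusted p under 0.05, 7 of the 10 were lower in MG-NP, against 6.23% of all genes, and 1950 genes reached that p in either direction. All 10 except S100a4 had a negative change. Every MG-NP value lay below every MG-N value for Pdgfra, Fap, Dcn and Lum, 4 of the 10, against 4.15% of all genes. edgeR called none of the 10, whereas DESeq2 called 3 lower, Fap, Lum and Postn, against 0.624% of 18107 genes lower by that tool.

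Lum differed by -1.25 on the log2 scale (SE 0.22), Fap by -1.05 (SE 0.21) and Pdgfra by -0.75 (SE 0.16), each with a limma adjusted p of 0.305. Dcn differed by -0.61 (SE 0.22, adjusted p = 0.382, limma) and Postn by -1.52 (SE 0.49, adjusted p = 0.345). DESeq2 gave adjusted p of 0.000153 for Lum, 0.00137 for Fap and 0.0265 for Postn. S100a4 differed by 0.01 with a 95% interval of -1.19 to 1.21 (limma adjusted p = 0.999) and by -0.025 under TMM scaling, so a change of 2-fold either way lay inside the interval. MG-N replicates 2 to 4 carried the p53 allele without Cre, so the mutant allele and the presence of Cre cannot be told apart against them. MG-N replicate 1, which carried Fsp-Cre, was lowest of its group for 6 of the 10 genes. Lum and Postn were among these, and Pdgfra, Fap and Dcn were not. MG-NP replicate 3, whose share of muscle reads lay within the range of MG-N, held the lowest MG-NP values of Pdgfra, Pdgfrb, Fap and Dcn and the highest of Fn1, Postn and Thy1. When the fit took the muscle score into account, none of the 10 genes was called, 8 changes stayed negative, from -1.42 for Fap to -0.83 for Pdgfrb, and those of S100a4 (0.74) and Thy1 (0.24) were positive. MG-NP replicates 1, 2 and 4 had more muscle reads than every MG-N library, so this fit does not separate muscle from the group. Beyond this fit, the part of muscle in these differences was not tested.

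Between T-NP and T-N, limma called none of the 9 genes tested, edgeR and DESeq2 called none either, and none had an unadjusted p under 0.05, which 1210 genes had, against 0.0361% of 16638 genes higher and 0.00601% lower. All 9 had a negative change, from -1.58 for Fn1 (95% interval -3.29 to 0.12, limma adjusted p = 0.695) to -0.08 for Dcn (-1.74 to 1.59), and the intervals of Dcn, Lum and Pdpn each included a 2-fold change in both directions. Without T-N replicate 3 the changes of 6 genes turned positive. The difference between the tumor-gland change in NP and that in N was called for none of the 10 genes by limma, edgeR or DESeq2, none had an unadjusted p under 0.05, which 1536 genes had, and limma adjusted p ranged from 0.652 to 0.984. Of all 19367 genes tested, 0% and 0% were called higher and lower by limma. Tumors and glands shared their genotype in NP. In N the tumors carried Fsp-Cre, whereas MG-N replicates 2 to 4 carried the p53 allele without Cre. Tissue, Cre and the allele therefore cannot be told apart in the N part of this difference. T-NP and T-N both carried Fsp-Cre and differed in the p53 allele.

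Other genes of the same tissue were counted in lists of fibroblast programs. Of the 16 resident fibroblast genes, typical of quiescent tissue fibroblasts, 12 of 15 tested rose in MG-N and 10 of 15 in MG-NP, and 12 and 12 of 15 fell in T-N and T-NP, with none in the other direction. Their median log2 changes were 1.83, 1.38, -3.26 and -3.24, beside medians over all genes tested between -0.07 and 0.02. The largest rises and falls were those of Dpt (dermatopontin, a matrix protein) at 4.84, 3.72, -5.71 and -4.73, and of Gsn (gelsolin, which severs actin filaments) at 3.63, 2.94, -6.24 and -5.30. Gelsolin is not particular to fibroblasts.

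The 16 matrix fibroblast genes, mostly collagens and fiber proteins, rose for 10 in MG-N but 1 in MG-NP, and fell for 9 in T-N and 10 in T-NP. Over all genes tested, 19.1% rose in MG-N and 16.4% in MG-NP, and 22.3% fell in T-N and 24% in T-NP. Col3a1 and Col5a2, both fibril collagens, rose most in MG-N by 2.90 and 2.47 on the log2 scale, and Col5a2 was the gene that rose in MG-NP (1.08, limma adjusted p = 0.0131). In the tumors Mmp2, a gelatinase, fell by 2.49 and 2.63, Col3a1 fell by 2.33 in T-N and Fbln1, a matrix glycoprotein, fell by 2.64 in T-NP. Of the 10 small leucine-rich proteoglycans other than Dcn and Lum, 4 rose and 1 fell in MG-N, 2 rose and 2 fell in MG-NP, and 5 and 5 of 8 tested fell in the tumors. Over all genes, 17.9% fell in MG-N and 16.2% in MG-NP, so both MG-NP counts lay near the shares. Ogn (osteoglycin) rose by 3.21 in MG-N and 2.07 in MG-NP and fell by 5.36 and 4.60 in the tumors, and Podn (podocan) rose by 2.47 and 2.42 in the glands. Fmod (fibromodulin) went the other way in the glands, at -3.10 and -2.72, and Bgn (biglycan) fell by 1.38 in MG-NP.

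The 16 activated fibroblast genes did not move as 1 group. In T-N, 6 were higher and 4 lower than in MG-N, and in T-NP 5 were higher and 4 lower than in MG-NP. Over all genes tested, 12.8% were higher and 22.3% lower in T-N, and 14.7% and 24% in T-NP. The counts of lower genes thus lay near the shares over all genes. Col11a1, a fibril collagen found in many carcinomas, was at 2365, 171, 312 and 84.5 in MG-N, 125, 314, 883 and 69.7 in MG-NP, 34329.7, 28868, 45386 and 31006 in T-N and 21719, 28176, 20697 and 25498 in T-NP, so every tumor lay above every gland by a wide gap, opposite to Dcn in the same libraries. Its log2 change was 6.73 (SE 0.87, limma adjusted p = 0.000448) in T-N and 6.74 (SE 0.67, adjusted p = 8.98e-05) in T-NP. Comp, a matrix glycoprotein of cartilage and tendon, rose by 6.40 and 6.21. Itga11, a collagen-binding integrin of fibroblasts, fell by 1.85 and 2.17, and Sulf1, which trims heparan sulfate, fell by 1.82 and 2.04. In the glands, 3 rose and 5 fell in MG-N and 2 rose and 6 fell in MG-NP, led by Thbs2 (2.75 and 1.99) and Itga11 (2.26 and 2.16) upward and by Ccn2 (-2.55 and -2.28) and Acta2 (-1.95 and -1.82) downward. Acta2 is also a gene of basal epithelium, whose markers fell in both comparisons.

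**Figure D4:**
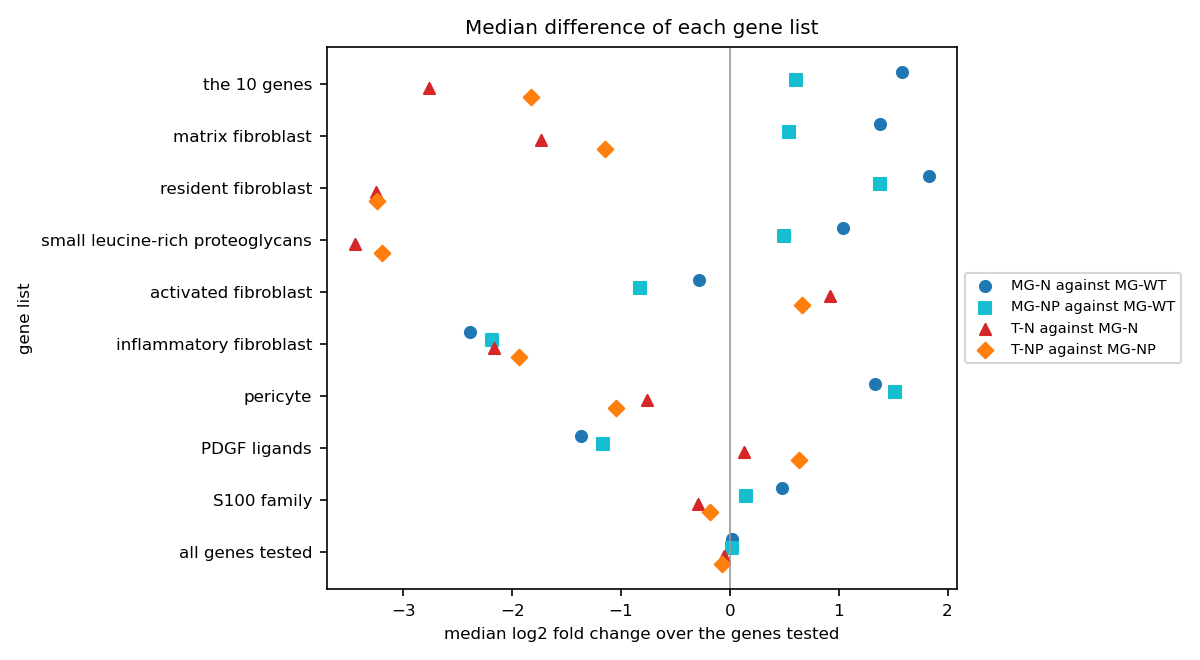
Median log2 fold change (horizontal axis) over the genes tested in each list (vertical axis) for 4 comparisons, marked by color and shape. The resident fibroblast list lies at 1.83 and 1.38 in the gland comparisons and at -3.26 and -3.24 in the tumor comparisons, while the activated fibroblast list lies above 0 in both tumor comparisons.

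The 4 PDGF ligands, which bind the receptors Pdgfra and Pdgfrb, moved in both directions. Against MG-WT, Pdgfa (-1.60), Pdgfb (-1.14) and Pdgfc (-1.88) fell in MG-N and Pdgfd rose (1.53), while in MG-NP Pdgfa (-1.37) and Pdgfc (-1.76) fell. In the tumors Pdgfb was lower in T-N (-1.16, limma adjusted p = 0.00434) and Pdgfc was higher in T-NP (1.06, limma adjusted p = 0.00178). The other changes against the glands did not pass, among them Pdgfd at -0.11 in T-N (adjusted p = 0.873, limma) and 1.09 in T-NP (adjusted p = 0.06, limma). Of the 8 genes of pericytes, the Pdgfrb-bearing cells of small vessels, 5 rose and 1 fell in MG-N, 6 rose and 1 fell in MG-NP, and 3 fell in T-N and 4 in T-NP with none higher. Cspg4, a surface proteoglycan of pericytes, changed by 2.29 in MG-N, -2.35 in T-N and -1.89 in T-NP. Des (desmin), which is also a gene of skeletal muscle, is 1 of the 6 and of the 4, at 3.79 in MG-NP and -5.80 in T-NP against MG-NP. It was at 7252, 41694, 690.0 and 27084 in MG-NP replicates 1 to 4, in the same order as their muscle reads, and the part of muscle in this list was not tested.

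The profiles of the 10 genes over the 19 libraries were compared by the root mean square difference of their mean-centered log2 values, a description in which all points share the same libraries. Among the 10, Postn and Thy1 were closest (0.494), then Pdgfrb and Thy1 (0.579) and Dcn and Lum (0.639), while Dcn and Fn1 were farthest apart (2.59). Of 14832 genes with a mean of at least 50 normalized counts, those nearest to S100a4 were Pira2 (0.589), Lsp1 (0.63), Slc9a9 (0.65), Pirb (0.693) and Rassf2 (0.696). None of the other 9 fibroblast genes was among them, and with a pseudocount of 5 in place of 1, only 1 of these 5 genes, Pirb, stayed among the nearest 5. Nearest to Pdgfra were Steap4 (0.315) and Rgl1 (0.348), and to Pdgfrb Chst12 (0.314) and P3h3 (0.317). Nearest to Fap were Pla1a (0.334) and Nid1 (0.359), to Dcn Clmp (0.442) and Ebf1 (0.467), and to Lum Srpx (0.403) and Abi3bp (0.447). Postn had Rcn3 (0.45) and Thy1 itself as its nearest genes, Pdpn had Adgra2 (0.436) and Dzip1l (0.474), and Thy1 had the collagens Col6a2 (0.364) and Col6a1 (0.376). Fn1 had no near neighbor by comparison, with Mest (0.755) and Crip1 (0.781) closest.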

How the data were processed

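Per the study's methods, 75-base read pairs were aligned to GRCm38 (mm10) with TopHat2 2.1.1 and Bowtie2, and the deposited values are DESeq2-normalized counts, a signal in which each read count was divided by a size factor. The counting tool, annotation and strand setting are not given in the sources used here, and the labels and the methods name different library kits. Whole reads were recovered from the value steps in all 19 libraries (within 0.05 of a whole number for 100% of values).

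Genes were named from GENCODE M21 (45229 of 46078 identifiers matched). Genes with at least 10 normalized counts in as many libraries as the smaller group were fitted with limma 3.58.1 on log2(value + 1) with a trended variance, a pair of groups at a time, with Benjamini-Hochberg adjustment over all genes tested. edgeR 4.0.16 and DESeq2 1.42.0 on recovered reads, TMM scaling, pseudocounts of 0.5 and 5, other filters, a fit of all groups, a muscle covariate, a replicate block and each library left out were alternatives. All 3 tools were tested on simulated data. Because the table holds a normalized signal, count tests were not the main result.

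The 10 genes and all lists were chosen with earlier results of these data known. Named are the 10 genes, up to 2 largest rises and falls of a list, the PDGF ligands, S100 neighbors and nearest profiles. The paper describes biological replicates in each group but does not state that every library came from a separate mouse. The p-values set group differences against the spread between these libraries. Lists were described by counts and medians without a test. Promoters are RefSeq's for GRCm38.p6.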

Additional observations from a re-analysis of the deposited data

How the results depend on the processing

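The counts of the 10 genes called stayed within 1.5 times of the reported counts under every alternative tried, except as follows. In MG-NP against MG-WT, 3 were called with all 5 groups in 1 fit (Dcn and Fn1 lost) and 2 in a fit with a skeletal muscle covariate, in place of 5. Every MG-NP library had more muscle reads than every MG-WT library, so that covariate cannot be told apart from the group. In MG-NP against MG-N, DESeq2 called 3 in place of 0, and it called 401 genes higher and 113 lower where limma called none. DESeq2 also called 51 genes higher and 34 lower in T-NP against T-N (limma 6 and 1) and 80 and 276 in the difference of the tumor-gland changes (limma 0), with none of the 10 genes among them. Leaving out 1 library at a time gave 6 to 8 in MG-N against MG-WT, 4 to 5 in MG-NP against MG-WT, 9 in T-N against MG-N, 7 to 10 in T-NP against MG-NP and 0 elsewhere. DESeq2 gave no adjusted p for Dcn in T-N against MG-N, which is not counted as a lost call. S100a4 is left out where genes need a mean of 50.

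The call of S100a4 in MG-NP against MG-WT was lost with a replicate block (log2 change 2.71, limma adjusted p = 0.0524), with the muscle covariate (4.63, adjusted p = 0.0693) and without MG-WT replicate 1, and leaving out 1 library gave 2.44 to 3.33. In MG-NP against MG-N its value turned negative under TMM scaling (-0.025), and ranged from -0.28 to 0.56 without 1 library. Other turned signs belong to values that passed no test. With the muscle covariate, Postn in MG-NP against MG-WT was 1.11 and Thy1 in MG-NP against MG-N was 0.24. Without MG-NP replicate 3, Thy1 against MG-WT was -0.011 (range -0.011 to 0.64). Fn1 in T-N against MG-N ranged from -1.30 to 0.080 without 1 library. In T-NP against T-N, leaving out 1 library gave -0.41 to 0.15 for Pdgfra, -0.44 to 0.055 for Fap, -0.60 to 0.69 for Dcn, -1.04 to 0.21 for Lum, -0.70 to 0.17 for Postn and -0.50 to 0.60 for Pdpn, and with T-NP replicates 1 and 2 averaged, Pdgfra was 0.031 and Pdpn 0.023. The causes were not tested.

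Replicate numbers are shared between groups. Deviations from the group means of same-numbered libraries correlated by -0.25 to 0.33 over 22 pairs, not above 0.1 for every pair of any comparison, and 8 of 44 libraries correlated best with their own number, so the numbers were not taken to pair the libraries. With the replicate as a block, the counts of the 10 genes called were 7 (MG-N against MG-WT), 4 (MG-NP against MG-WT), 9 (T-N against MG-N), 8 (T-NP against MG-NP) and 0 in the other comparisons. The few reads of S100a4 and groups of 3 or 4 libraries limit the precision.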

Other observations

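Cytokine and complement genes listed for inflammatory fibroblasts differed among themselves. Il6 and Cxcl1, which recruit and activate leukocytes, were lower in MG-N than in MG-WT by log2 changes of -6.72 and -6.10 and in MG-NP by -7.08 and -6.20, whereas C7, a complement component, rose by 2.71 and 2.66. In MG-N, 6 of 13 tested fell and 2 rose, and in MG-NP 9 of 14 fell and 3 rose. In the tumors 7 of 13 (T-N) and 7 of 12 (T-NP) fell, among them Cxcl12, a chemokine of stromal cells, with a log2 change of -4.85 in T-N, and C3 with -4.81 in T-NP. In T-N 4 rose (Cxcl1, Saa3, Lif and Ptgs2) and in T-NP 1 (Cxcl1). Cxcl1 rose there by 2.83 and 3.10 on the log2 scale (limma adjusted p = 0.00929 and 0.000925). The MG-WT libraries are also those with few adipocyte and many epithelial reads, and the part of that in these values was not tested.

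Of the S100 genes other than S100a4, 5 of 12 tested rose in MG-N and 1 fell, led by S100a13 (2.52) and S100a9 (2.43) upward and S100a11 (-1.25) downward. In MG-NP 2 of 13 rose, S100a13 (2.31) and S100a1 (1.73), and S100a11 fell (-1.87). In the tumors S100a6 fell in T-N (-1.52, limma adjusted p = 0.0158) and T-NP (-1.05, limma adjusted p = 0.0261), as did S100a7a (-2.46 and -1.96), S100a10 fell in T-N (-1.21, limma adjusted p = 0.0188), and S100a16 rose (1.11 and 1.44).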
